A study of Homo sapiens with 16 samples.

Results

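The cytosolic ribosomal protein genes, the genes for the proteins of the ribosome, were described across 16 RNA-seq libraries of oncogene-induced senescence with and without knockdown of AHCY. Members were taken by symbol: RPL or RPS followed by a number, with or without a final A or X, together with RPLP0, RPLP1, RPLP2 and RPSA. Pseudogenes, the RPS6 kinases and RPS27L were left out. The rule found 77 genes among the 62069 gene identifiers of the count table, 31 for the small (40S) subunit and 46 for the large (60S) subunit. Of these, 76 passed the filter on low counts.

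The cells were IMR90 ER:RAS, a human lung fibroblast line in which an oncogenic RAS is joined to oestrogen receptor sequence and becomes active when 4-hydroxytamoxifen (4OHT) is added. There were 4 groups of 4 libraries, all labelled day 6 and passage 15. The group shAHCY_4 (replicates 61 to 64) held an shRNA against AHCY and was given 4OHT. The group shAHCY_2 (replicates 57 to 60) held another shRNA against the same gene and was given 4OHT. The group EV_4OHT (replicates 53 to 56) held the empty vector, was given 4OHT and is called senescent in the labels. The group EV (replicates 49 to 52) held the empty vector and is called non-senescent, and the labels do not say whether these cells were given a vehicle. The treatment notes give 4OHT at 100 nM. All groups share the line and the ER:RAS fusion, and 4OHT was not given to cells lacking it, so the effects of 4OHT and of RAS cannot be told apart. No cells with a hairpin and without 4OHT were analysed here. No group held a hairpin aimed at no gene, so carrying a hairpin and losing AHCY cannot be told apart. Whether each library stands for its own culture is not stated in the labels. The p-values therefore rest on the scatter among these libraries, and that scatter may be technical.

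A ribosome is built from ribosomal RNA and one copy of nearly every protein named here, so these genes are expressed together and at high levels in growing cells. Their messenger RNAs typically begin at a cytosine followed by a run of pyrimidines, the 5′ terminal oligopyrimidine (TOP) start. The kinase complex mTORC1 controls the translation of such messengers, and the RNA-binding protein LARP1 binds the TOP start and stabilises them when mTORC1 is off. AHCY hydrolyses S-adenosylhomocysteine, the by-product of methylation reactions that use S-adenosylmethionine.

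The annotated start sites of the members carried the TOP letters in most cases. RefSeq start windows (GRCh38.p14, 250 bases before to 50 bases after the start) were at hand for 62 members, with 77 windows because 10 members have several. At 46 of the 62 members (74.2%) a window began at C followed by at least 4 pyrimidines, against 5.14% of the 27305 genes with a window and 7.43% of the 10343 such genes tested here. Counting runs that begin within 5 bases of the annotated start, 53 of the 62 members (85.5%) had one, against 25.2% of all genes with a window and 29.5% of those tested. The longest run at the start among the members was 19 bases and the median 7. The lines below give 10 bases before and 20 bases from the annotated start, with the pyrimidine run in capitals. The first 5 are members that fell in shAHCY_4 cells and begin with such a run, shown because their values are described below.
RPS12 (chr6:132814559-132814588, plus strand): cggatgaggcCTCTTTCCCTgccgccgccg
RPL39 (chrX:119791611-119791640, minus strand): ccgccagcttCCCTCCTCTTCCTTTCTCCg
RPS27A (chr2:55232678-55232707, plus strand): ggcgttcttcCTTTTCgatccgccatctgc
RPL12 (chr9:127451387-127451416, minus strand): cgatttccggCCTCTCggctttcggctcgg
RPLP1 (chr15:69452808-69452837, plus strand): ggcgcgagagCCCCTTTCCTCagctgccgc
The next pair also fell in shAHCY_4 cells and do not begin with C at the annotated start. RPS28 begins at an A, with a pyrimidine run from the base after it, and RPS29 begins at a single T.
RPS28 (chr19:8321486-8321515, plus strand): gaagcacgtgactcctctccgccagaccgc
RPS29 (chr14:49598691-49598720, minus strand): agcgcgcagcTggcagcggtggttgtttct
The last pair have a run and did not pass the test in shAHCY_4 cells.
RPS14 (chr5:150449720-150449749, minus strand): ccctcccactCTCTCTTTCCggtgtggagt
RPL29 (chr3:51995876-51995905, minus strand): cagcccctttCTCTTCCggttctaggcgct
These 9 sequences were chosen, and RPL29 is named, after the values were seen. Of 4 other letter strings searched on both strands of the 300-base windows, CCGGAAG stood in 22 of 62 members (35.5%), against 12.2% of all genes with a window and 22.6% of those tested. GGGCGG stood in 58.1% of members, against 48.3% of all and 76.8% of tested genes. TATAAA stood in 8.06% of members, against 14.0% and 8.79%. AAGATGGCG, which can overlap CCGGAAG, stood in 8.06% of members, against 2.13% and 4.72%. These are matches of letters, not sites.

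The libraries held 8236199 to 18235787 counts. AHCY, the target of both hairpins, was measured at 14.7 ± 2.19 CPM (a gene's share of the counts of a library, after scaling by TMM factors) in shAHCY_4 cells and 18.5 ± 4.54 CPM in shAHCY_2 cells, against 164.5 ± 8.08 CPM in EV_4OHT cells and 114 ± 11.3 CPM in EV cells (SD, n = 4 each). All 9 fibroblast markers were above 1 CPM in every group, with a summed level of 4809 to 5436 CPM in shAHCY_4, 4921 to 5407 CPM in shAHCY_2 and 4827 to 4998 CPM in EV_4OHT cells, against 10690 to 12370 CPM in EV cells. The summed level of 5 epithelial markers was 1.97 to 4.01 CPM in the 12 libraries given 4OHT, against 48.8 to 57.98 CPM in EV cells, mostly from KRT19, and SFTPC was at 0 throughout. Endothelial markers summed to 2.32 to 7.40 CPM, with PECAM1 and CDH5 at 0, and blood markers to 0.0683 to 1.13 CPM, with CD3E at 0. The part of these other markers in the results against EV was not tested. In bulk RNA, fewer cells of a type and less RNA per cell cannot be told apart. Library 59 of shAHCY_2 stood apart from its group and had a trend over GC content. Spearman's rho was -0.549 between a gene's deviation from its mean over all libraries and its GC content. Such a deviation also holds differences between groups. EV library 51 had a weaker trend of the same sign (-0.276). Trends of the opposite sign were seen in shAHCY_4 libraries 62 (0.289) and 63 (0.234), which were left out singly. With 59 and 51 both left out, none of the counts of members called in the 6 comparisons moved by over 1.5 times.

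Ribosomal protein genes took 2.3% to 3.1% of the counts in a library, and the lowest group mean was that of shAHCY_4 cells. The share was 2.48%, 2.32%, 2.41% and 2.40% in the shAHCY_4 libraries and 2.53%, 2.61%, 2.67% and 2.78% in the shAHCY_2 libraries. It was 2.75%, 3.14%, 2.72% and 2.92% in the EV_4OHT libraries and 2.41%, 2.74%, 2.71% and 3.12% in the EV libraries. The shAHCY_4 libraries lay below all EV_4OHT and all shAHCY_2 libraries, and the EV libraries spanned nearly the whole range. Group means were 2.40 ± 0.0644% in shAHCY_4, 2.65 ± 0.105% in shAHCY_2, 2.88 ± 0.191% in EV_4OHT and 2.75 ± 0.294% in EV cells (SD, n = 4 each). Mitochondrially encoded transcripts moved in the same order, with 4.6 ± 0.297% in shAHCY_4 and 4.98 ± 0.251% in shAHCY_2, against 6.41 ± 0.0524% in EV_4OHT and 5.51 ± 0.236% in EV cells. Without mitochondrial counts in the total, the members' mean share was 2.52% in shAHCY_4 and 2.79% in shAHCY_2, against 3.08% in EV_4OHT and 2.91% in EV cells.

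**Figure D1:**
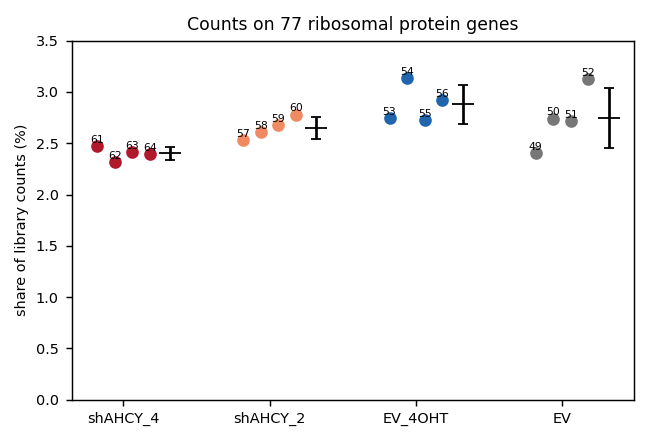
Share of each library's counts that fell on the 77 ribosomal protein genes, in percent, for the 4 libraries of each group (points, labelled by replicate) with the mean ± SD beside them. The 4 shAHCY_4 libraries lie between 2.32% and 2.48%, below every EV_4OHT library, while the EV libraries run between 2.41% and 3.12%.

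The members moved together from library to library. On log2(CPM + 0.5), the median deviation over the 76 members from each gene's mean over all libraries was -0.11, -0.22, -0.16 and -0.18 in the shAHCY_4 libraries 61 to 64, in which 6, 2, 5 and 1 of 76 members were above their own mean. In EV_4OHT library 54 all 76 members were above their mean, with a median of 0.36, against 0.07 to 0.20 in the other 3 libraries of that group. EV cells were the most spread, with a median of -0.25 in library 49 and 0.21 in library 52.

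**Figure D2:**
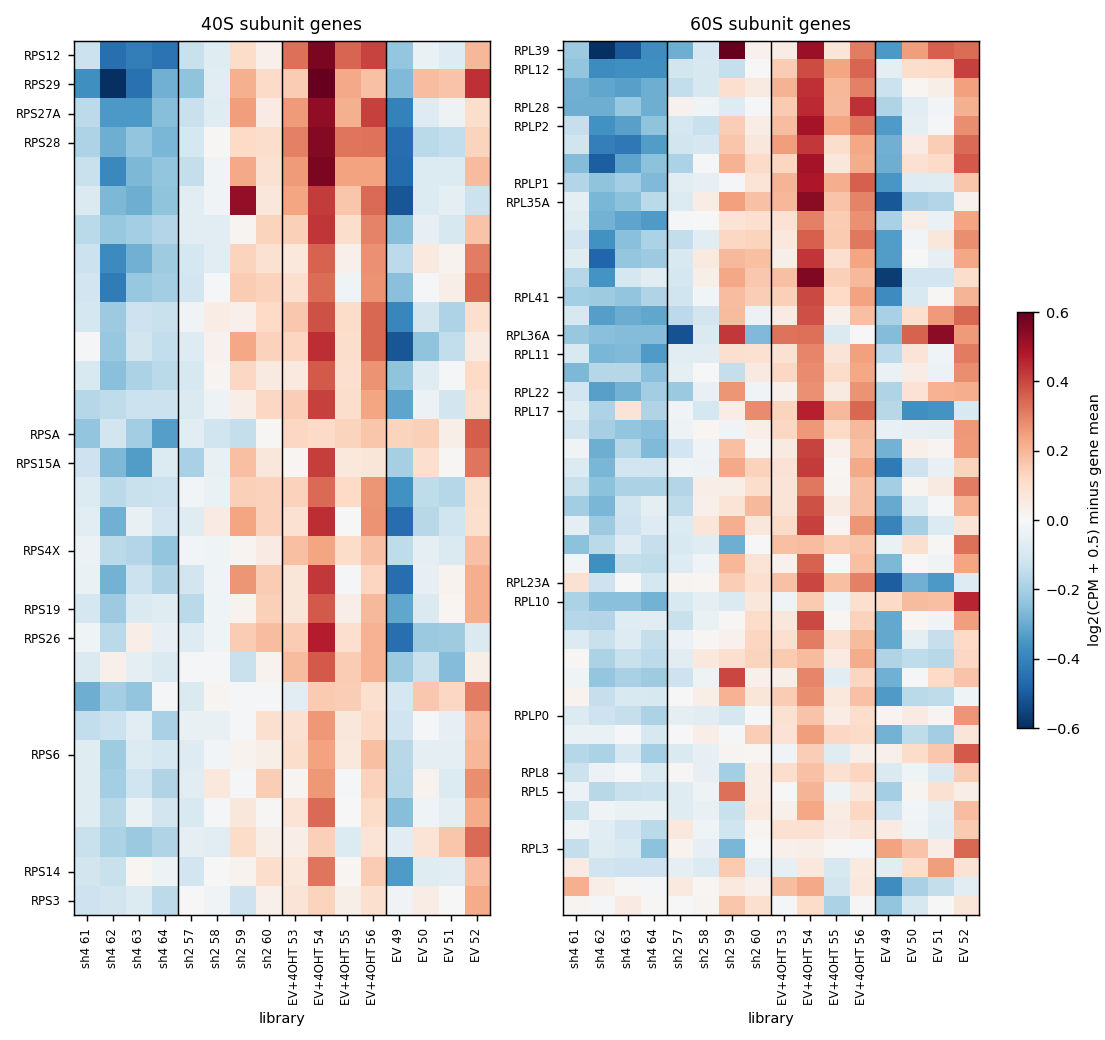
Heat map of log2(CPM + 0.5) minus the gene's mean over all 16 libraries, for the 30 tested 40S genes and the 46 60S genes (rows, ordered by the change in shAHCY_4 against EV_4OHT cells, with the members named by rule labelled) in each library (columns; sh4 and sh2 are shAHCY_4 and shAHCY_2), with colours saturating at 0.6 either way. Blue (below the mean) fills nearly all rows of the shAHCY_4 libraries, library 54 is red (above) throughout, and EV libraries 49 and 52 differ from each other.

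In cells given 4OHT, knockdown of AHCY with shAHCY_4 went with lower levels of most ribosomal protein genes, by a modest amount. Of 76 members, 58 were lower than in EV_4OHT cells and 0 were higher (edgeR's quasi-likelihood test, Benjamini-Hochberg adjusted p under 0.05), where 14.4% of the 13526 genes tested were called, 6.86% lower and 7.58% higher. At an unadjusted p under 0.05, 72 members were lower and 0 higher, against 27.6% of all genes in either direction and 13.2% lower. DESeq2 called 63 and limma-voom 58, all lower. The median log2 fold change over the members was -0.34, a level 0.788 times that of EV_4OHT cells, against 0.01 over all genes tested. For 71 of 76 members all 4 shAHCY_4 libraries lay below all 4 EV_4OHT libraries, against 11.2% of all genes, and for 0 all lay above, against 12.1%. Both subunits took part, with 25 of 30 tested 40S genes lower at a median of -0.35 and 33 of 46 60S genes lower at a median of -0.34. Without EV_4OHT library 54, in which these genes were highest, 38 members were called lower at a median of -0.30. 36 of the 58 were called whichever of the 8 libraries was left out, and all 36 were also called in every other setting run.

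**Figure D3:**
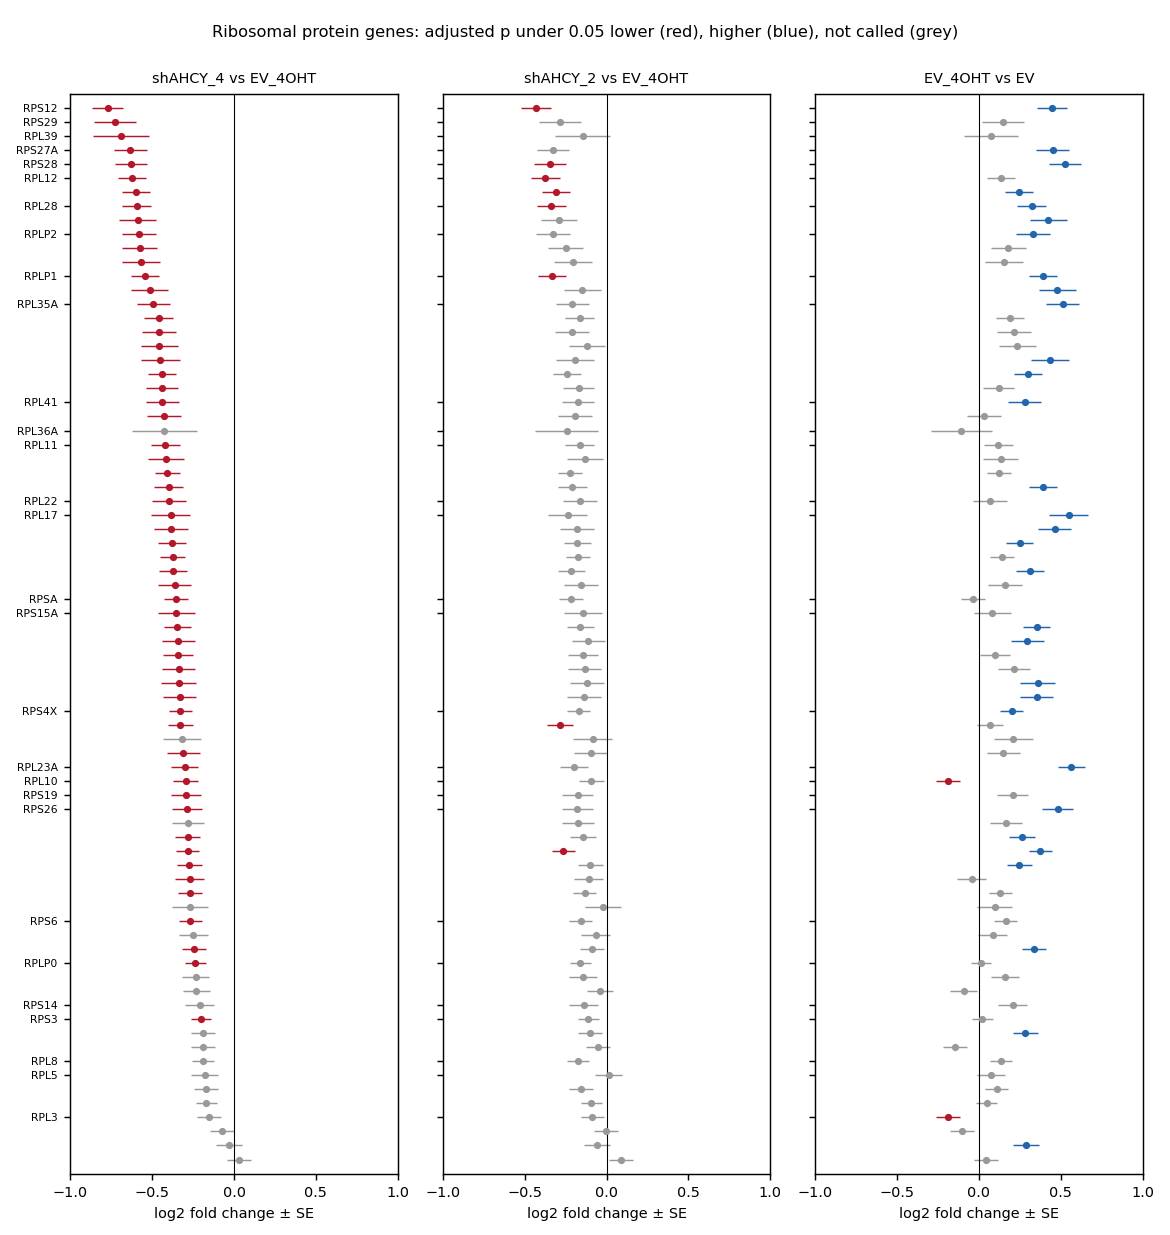
Log2 fold change ± SE of each tested member (rows, in 1 order for all panels, with the members named by rule labelled) in shAHCY_4 against EV_4OHT, shAHCY_2 against EV_4OHT and EV_4OHT against EV cells, with red for called lower, blue for called higher and grey for not called. In shAHCY_4 cells 75 of 76 members are below 0 and 58 are called, in shAHCY_2 cells 74 are below 0 and 8 are called, and in senescence 68 are above 0.

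Among 40S genes the 4 furthest below EV_4OHT cells were RPS12, RPS29, RPS27A and RPS28. RPS12, a protein of the beak of the small subunit, had 228, 182, 187 and 183 CPM in the shAHCY_4 libraries, against 314, 369, 317 and 329.8 CPM in the EV_4OHT libraries. The groups did not overlap, library 61 was the highest of the shAHCY_4 libraries, and the log2 fold change was -0.77 ± 0.09 (SE; adjusted p = 4.39e-06, edgeR). RPS29, a small zinc-binding protein mutated in some families with Diamond-Blackfan anaemia, had 107, 90.6, 101 and 113 CPM in shAHCY_4, against 154, 209.7, 162 and 157 CPM in EV_4OHT libraries. Its log2 fold change was -0.73 ± 0.13 (adjusted p = 0.000467, edgeR), with library 54 well above the other EV_4OHT libraries. RPS27A is made as a fusion of ubiquitin with a ribosomal protein, so that its messenger also supplies ubiquitin. It had 299.6, 263, 263 and 280.0 CPM in shAHCY_4, against 399, 482, 388 and 444 CPM in EV_4OHT libraries, without overlap, and changed by -0.63 ± 0.10 (adjusted p = 0.000143, edgeR). RPS28, a short protein near the exit of the messenger channel, had 109, 101, 105 and 103 CPM in shAHCY_4, against 153, 182, 155 and 156 CPM in EV_4OHT libraries. The highest shAHCY_4 library was below the lowest EV_4OHT library, and the log2 fold change was -0.63 ± 0.10 (adjusted p = 0.000104, edgeR). Pseudogenes named after RPS28 held counts equal to 12.3% of its own, so reads of near-identical copies may be split between them.

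Smaller decreases were measured for other 40S genes. RPSA, also known as the laminin receptor precursor, had 170.5, 186, 174 and 159 CPM in shAHCY_4, against 219, 218, 220.5 and 225 CPM in EV_4OHT libraries, and fell with a log2 fold change of -0.35 ± 0.07 (adjusted p = 0.00217, edgeR). RPS4X, an X-linked 40S gene, averaged 482 ± 29.5 CPM in shAHCY_4 and 605 ± 22.1 CPM in EV_4OHT cells (SD, n = 4 each), a log2 fold change of -0.33 ± 0.07 (adjusted p = 0.00259, edgeR). RPS6, the substrate by which S6 kinase activity downstream of mTORC1 is usually read, had 745, 676, 742 and 729 CPM in shAHCY_4, against 845, 929, 819 and 888 CPM in EV_4OHT libraries. The groups did not overlap and the log2 fold change was -0.27 ± 0.07 (adjusted p = 0.0145, edgeR). RPS19, the gene most often mutated in Diamond-Blackfan anaemia, averaged 697 ± 32.1 CPM in shAHCY_4 and 854 ± 89.3 CPM in EV_4OHT cells, and changed by -0.29 ± 0.09 (adjusted p = 0.0386, edgeR). RPS3, which lines the entry of the messenger channel and also has DNA-repair activity, averaged 635 ± 13.9 CPM in shAHCY_4 and 731 ± 20.2 CPM in EV_4OHT cells, and changed by -0.20 ± 0.06 (adjusted p = 0.0336, edgeR). The calls of RPS19 and RPS3 were lost when libraries were scaled by their totals alone, at -0.24 and -0.15, and both were lost without library 54, 56, 61, 62 or 64, and also without 63 for RPS19 and without 53 for RPS3. The call of RPS3 was also lost without the low-count filter (-0.21). That of RPS6 was lost without library 54 or 62, at -0.24 in each.

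The stalk of the large subunit recruits translation factors and consists of RPLP0 and dimers of RPLP1 and RPLP2. RPLP1 had 685, 656, 671 and 644 CPM in shAHCY_4, against 891, 1085, 899.7 and 991 CPM in EV_4OHT libraries, so that the groups were separated by a wide gap. Its log2 fold change was -0.54 ± 0.09 (adjusted p = 0.000124, edgeR). RPLP2 had 229, 196, 201 and 213 CPM in shAHCY_4, against 287, 356, 296 and 315 CPM in EV_4OHT libraries, again without overlap, and changed by -0.58 ± 0.10 (adjusted p = 0.000495, edgeR). RPLP0, which anchors the dimers, had 599, 582, 575 and 557 CPM in shAHCY_4, against 675, 714, 654 and 683 CPM in EV_4OHT libraries. Its change was smaller, at -0.24 ± 0.06 (adjusted p = 0.0146, edgeR), and was not called with library totals alone as the scale (-0.18) or without library 64 (-0.21). RPL12, which sits at the base of the stalk, had 133, 121, 121 and 121 CPM in shAHCY_4, against 174, 205, 184 and 199.5 CPM in EV_4OHT libraries, and changed by -0.62 ± 0.09 (adjusted p = 2.56e-05, edgeR).

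RPL5 and RPL11 bind 5S ribosomal RNA, and outside the ribosome this particle binds MDM2 and stabilises p53. RPL11 had 332, 293, 294 and 280.1 CPM in shAHCY_4, against 378, 434, 373 and 421 CPM in EV_4OHT libraries, and fell without overlap, with a log2 fold change of -0.42 ± 0.09 (adjusted p = 0.0023, edgeR). RPL5 had 902, 825, 843 and 845 CPM in shAHCY_4, against 926, 1065, 907 and 970.0 CPM in EV_4OHT libraries. The shAHCY_4 libraries lay below, the highest of them close to the lowest EV_4OHT library, and the change of -0.18 ± 0.08 did not pass the test (adjusted p = 0.162, edgeR; 95% interval -0.34 to -0.02). The difference between the 2 genes was not tested.

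Decreases were also measured in 60S genes outside the stalk. RPL39, which lines the tunnel through which the new chain leaves, had 109.6, 78.7, 89.8 and 98.6 CPM in shAHCY_4, against 132, 183, 134 and 158 CPM in EV_4OHT libraries. Both groups were spread, they did not overlap, and the log2 fold change was -0.69 ± 0.17 (adjusted p = 0.00793, edgeR). RPL28 averaged 82.4 ± 1.91 CPM in shAHCY_4 and 124 ± 13.4 CPM in EV_4OHT cells (SD, n = 4 each), a change of -0.59 ± 0.09 (adjusted p = 5.26e-05, edgeR). RPL41, which encodes the shortest ribosomal protein, had 174, 173, 171 and 177 CPM in shAHCY_4, against 222, 264, 218 and 237 CPM in EV_4OHT libraries, and changed by -0.44 ± 0.10 (adjusted p = 0.00428, edgeR). RPL35A, a Diamond-Blackfan anaemia gene, averaged 341 ± 22.9 CPM in shAHCY_4 and 479.7 ± 58.3 CPM in EV_4OHT cells and changed by -0.49 ± 0.10 (adjusted p = 0.00193, edgeR). RPL22, whose loss mice survive, averaged 79.3 ± 5.11 CPM in shAHCY_4 and 104 ± 9.68 CPM in EV_4OHT cells and changed by -0.40 ± 0.10 (adjusted p = 0.0127, edgeR). RPL10, which joins late and is needed for subunit joining, had 310.2, 297, 297 and 290.2 CPM in shAHCY_4, against 347, 395, 347 and 378 CPM in EV_4OHT libraries, and changed by -0.30 ± 0.08 (adjusted p = 0.0103, edgeR). RPL23A, at the tunnel exit, changed by -0.30 ± 0.08 (adjusted p = 0.0174, edgeR), a call lost without library 54, 62 or 64 (-0.28 to -0.26).

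**Figure D4:**
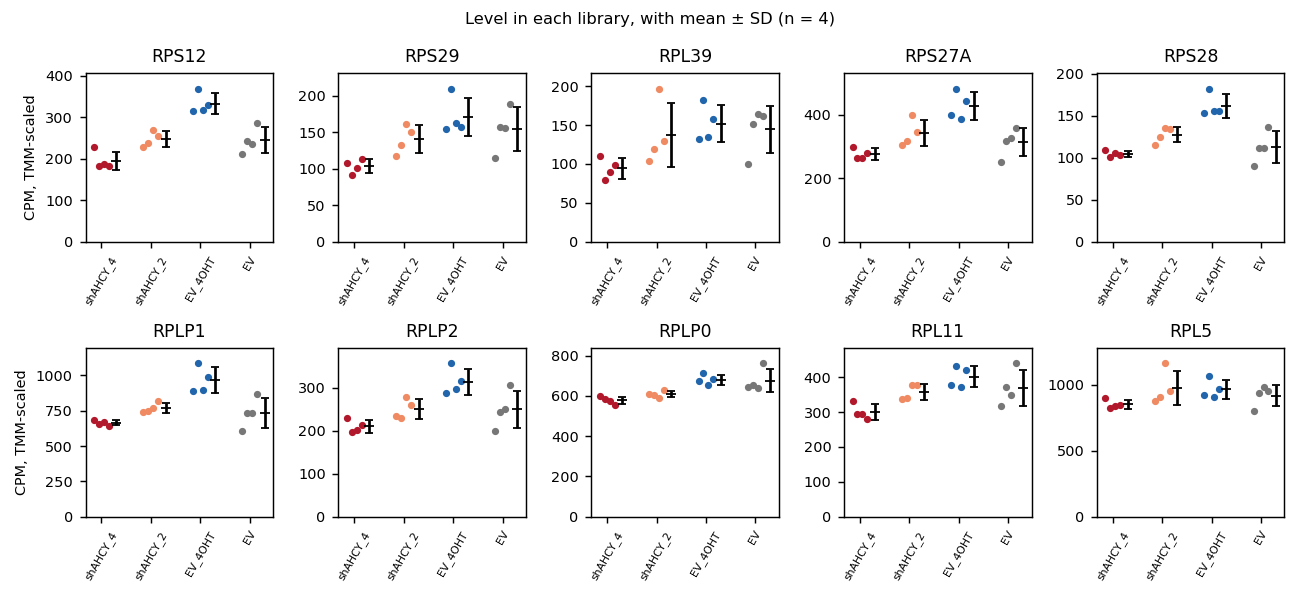
CPM scaled by TMM factors in each library (points) with mean ± SD beside them, for 5 genes with large decreases in shAHCY_4 cells, the 3 stalk genes and the 5S-binding RPL11 and RPL5. The shAHCY_4 points lie below all EV_4OHT points in all 10 panels, and in RPL5 the gap is the narrowest in proportion.

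Of the tested members, 18 did not pass the test in shAHCY_4 cells, a number that other settings lowered: 73 of 76 were called when only the 2 groups were fitted, 70 without libraries 51 and 59, and 67 with the GC trend removed. Among those described as not passing, RPL5, RPL8, RPL3, RPS14 and RPL36A were called when only the 2 groups were fitted, RPL5, RPL8 and RPL3 also in both GC settings, and RPL8 by DESeq2. RPL8 averaged 794 ± 29.7 CPM in shAHCY_4 and 906 ± 23.5 CPM in EV_4OHT cells, a change of -0.19 ± 0.07 (adjusted p = 0.0618, edgeR; 95% interval -0.32 to -0.06). RPS14, the gene lost in the 5q- syndrome, averaged 787 ± 36.5 CPM in shAHCY_4 and 909.6 ± 87.9 CPM in EV_4OHT cells, with an interval of -0.38 to -0.03. RPL3, close to the peptidyl transferase centre, averaged 726 ± 38.1 CPM in shAHCY_4 and 806 ± 11.4 CPM in EV_4OHT cells, with an interval of -0.29 to -0.01. In these 3 genes every shAHCY_4 library was below every EV_4OHT library all the same. RPL7 was the 1 member with a positive value, named after its values were seen. It had 550.0, 539, 563 and 547 CPM in shAHCY_4, against 539, 588, 477 and 547 CPM in EV_4OHT libraries, and the overlapping groups gave 0.03 ± 0.07. RPL15, chosen in the same way, also overlapped, at -0.07 ± 0.07.

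The 3 tested members with the fewest counts were RPL36A, RPL17 and RPS15A. RPL36A had 6.82, 6.7, 6.66 and 6.67 CPM in shAHCY_4, against 10.2, 10.3, 7.57 and 8.05 CPM in EV_4OHT libraries, and its change of -0.43 ± 0.20 did not pass the test (adjusted p = 0.162, edgeR). RPL17 had 15.5, 14.3, 17.2 and 14.3 CPM in shAHCY_4, against 17.9, 22.7, 18.7 and 20.8 CPM in EV_4OHT libraries, and changed by -0.39 ± 0.12 (adjusted p = 0.0324, edgeR), a call lost at -0.28 when the counts of its pseudogenes, 26.9% of its own, were added. RPS15A averaged 52.3 ± 4.41 CPM in shAHCY_4 and 66.8 ± 9.16 CPM in EV_4OHT cells and changed by -0.35 ± 0.11 (adjusted p = 0.0402, edgeR), a call lost with library totals alone as the scale (-0.30) and in 7 of the 8 fits with 1 library left out, all but that without 53. That of RPL17 was also lost with library totals alone (-0.33), without the low-count filter (-0.40) and with the length trend removed (-0.25). Leaving out library 54, 56, 61, 62 or 64 lost it too. Levels of RPL36A, RPL17 and RPS10 are uncertain for a further reason, since each shares exons with a readthrough gene of its neighbour, and reads of both cannot be told apart.

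The other AHCY hairpin gave fewer calls. In shAHCY_2 against EV_4OHT cells 8 of 76 members were lower and 0 were higher (edgeR's quasi-likelihood test), where 6.98% of genes tested were called, 3.07% lower and 3.91% higher. At an unadjusted p under 0.05, 26 members were lower and 0 higher, against 21.8% of all genes in either direction and 10.0% lower. The median log2 fold change was -0.16 over the members and 0.01 over all genes, and 74 of 76 members were below 0. For 19 members the shAHCY_2 libraries all lay below the EV_4OHT libraries, against 7.69% of all genes, and for 0 all lay above, against 7.27%. The 5 furthest below EV_4OHT cells among the 8 were RPS12, RPL12, RPS28, RPL28 and RPLP1. RPS12 had 227, 237, 269.3 and 255 CPM in shAHCY_2, against 314, 369, 317 and 329.8 CPM in EV_4OHT libraries, and changed by -0.43 ± 0.09 (adjusted p = 0.00512, edgeR). RPL12 had 145, 146, 142 and 156 CPM in shAHCY_2, against 174, 205, 184 and 199.5 CPM in EV_4OHT libraries, and changed by -0.37 ± 0.09 (adjusted p = 0.00848, edgeR). In both genes the groups did not overlap, and both were called whichever of the 8 libraries was left out. RPLP1 had 739, 747, 769 and 818 CPM in shAHCY_2, against 891, 1085, 899.7 and 991 CPM in EV_4OHT libraries, and changed by -0.33 ± 0.09 (adjusted p = 0.0188, edgeR). RPS28 and RPL28 changed by -0.34 ± 0.10 and -0.34 ± 0.09 (adjusted p = 0.0325 and 0.0192, edgeR), and the call of RPS28 was lost at -0.27 with the GC trend removed. Each of the 8 calls other than those of RPS12 and RPL12 was lost when at least 1 library was left out. Without library 54, 56, 57 or 58 the count was 2, 3, 4 or 3, and with the trend over transcript length removed it was 13.

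RPL5, RPL15 and RPL7 were the members nearest to 0 or above it in shAHCY_2 cells. RPL5 had 879.5, 905, 1163 and 955 CPM in shAHCY_2, against 926, 1065, 907 and 970.0 CPM in EV_4OHT libraries, and the overlapping groups gave 0.01 ± 0.08 (95% interval -0.15 to 0.18). Library 59, which has the GC trend, was the highest of its group for RPL5 as it was for RPL39, RPS27A and RPS13. RPLP2, RPS27A and RPSA missed the threshold in shAHCY_2 cells at -0.32 ± 0.10, -0.33 ± 0.10 and -0.21 ± 0.07 (adjusted p = 0.0607, 0.0515 and 0.0841, edgeR). All 3 were called lower by DESeq2 and with the length trend removed, RPS27A and RPSA also with the GC trend removed, and RPS27A also by limma-voom. RPS13 is named here after its values were seen.

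The difference between the hairpins was tested directly. In shAHCY_4 against shAHCY_2 cells 0 of 76 members were called in either direction by edgeR's quasi-likelihood test, where 1.24% of genes tested were called, 0.702% lower and 0.54% higher. At an unadjusted p under 0.05, 41 members were lower and 0 higher, against 17.9% of all genes in either direction and 9.13% lower. The median over members was -0.20, against -0.01 over all genes, with 75 of 76 below 0, and 29 members were lower without overlap, against 5.0% of genes, and 0 higher, against 5.89%. DESeq2 called 5 members lower (RPL39, RPS29, RPS12, RPL14 and RPL30, all named to complete the count), limma-voom 0, edgeR with the GC trend removed 7, and edgeR without the low-count filter 10. RPS12 was the 1 member called when library 61 was left out, at -0.42. RPL39 had 109.6, 78.7, 89.8 and 98.6 CPM in shAHCY_4, against 104, 119, 197 and 129.9 CPM in shAHCY_2 libraries, which overlap, and its log2 difference was -0.55 ± 0.17 (adjusted p = 0.107, edgeR; 95% interval -0.88 to -0.21). RPS29 had 107, 90.6, 101 and 113 CPM in shAHCY_4, against 117, 132, 161 and 150.1 CPM in shAHCY_2 libraries, which do not overlap, with -0.44 ± 0.13 (adjusted p = 0.0877, edgeR). AHCY itself differed by -0.34 ± 0.14 between the hairpins (adjusted p = 0.216, edgeR), and by -0.38 with the GC trend removed, where it was called. Both hairpins were compared with the same 4 EV_4OHT libraries.

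In senescence without knockdown, some ribosomal protein genes were higher and few were lower. In EV_4OHT against EV cells 31 of 76 members were higher and 2 were lower (edgeR's quasi-likelihood test), where 53.5% of genes tested were called, with 26.7% of genes tested higher and 26.8% lower. The median over members was 0.18, against -0.02 over all genes, and 68 of 76 members were above 0. With the length trend removed, 24 were higher and 6 lower at a median of 0.12, and 19 of these calls were among the 33. By subunit, 15 of 30 40S genes were higher and 0 lower at a median of 0.21, and 16 of 46 60S genes were higher and 2 lower at a median of 0.15. For 18 members (23.7%) all EV_4OHT libraries were above all EV libraries, near the 24.0% of all genes. For 1 member (1.32%) all were below, against 24.0% of all genes. The counts moved with single libraries. In all, 52 members were higher and 0 lower without EV library 52 (median 0.27), 22 were higher and 5 lower without EV library 49 (median 0.08), and 26 were higher and 1 lower without EV_4OHT library 54 (median 0.13). With library totals alone as the scale, the median of all genes was -0.13, 20 members were higher and 5 lower, and the members' median stayed 0.20 above that of all genes.

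The largest senescence increases were in RPL23A, RPL17, RPS28, RPL35A and RPS26. RPL23A, which binds at the tunnel exit where the signal recognition particle docks, had 276, 322, 276 and 301 CPM in EV_4OHT, against 173, 199, 192 and 231 CPM in EV libraries. The groups did not overlap and the log2 fold change was 0.56 ± 0.08 (adjusted p = 6.17e-06, edgeR). RPL17 had 17.9, 22.7, 18.7 and 20.8 CPM in EV_4OHT, against 14.4, 12.5, 12.6 and 15.2 CPM in EV libraries, and changed by 0.55 ± 0.12 (adjusted p = 0.000483, edgeR), but was not called with the length trend removed (0.23). RPS28 had 153, 182, 155 and 156 CPM in EV_4OHT, against 90.3, 111, 112 and 136 CPM in EV libraries, and changed by 0.52 ± 0.10 (adjusted p = 9.28e-05, edgeR). RPL35A and RPS26, both Diamond-Blackfan anaemia genes, changed by 0.51 ± 0.10 and 0.48 ± 0.09 (adjusted p = 0.000203 and 0.000142, edgeR), and neither overlapped between groups. RPL23A and RPL17 may share reads with pseudogenes named after them, whose counts were 17.4% and 26.9% of their own.

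The 2 members lower in senescence were RPL3 and RPL10. RPL3 had 814, 816, 801 and 792 CPM in EV_4OHT, against 942, 899, 822 and 1014 CPM in EV libraries, without overlap, and changed by -0.19 ± 0.07 (adjusted p = 0.0317, edgeR). RPL10 had 347, 395, 347 and 378 CPM in EV_4OHT, against 382, 403, 400.4 and 485 CPM in EV libraries, which overlap, and changed by -0.19 ± 0.08 (adjusted p = 0.0389, edgeR). Both calls were lost without library 52, 53 or 56, that of RPL3 also without 54 and that of RPL10 also without 55. Both were lost without the low-count filter (-0.17 in each), and that of RPL10 also with RLE scaling factors (-0.18).

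The stalk genes gave these values in senescence, and differences between them were not tested. RPLP1 had 891, 1085, 899.7 and 991 CPM in EV_4OHT, against 607, 735, 736 and 869 CPM in EV libraries, without overlap, and rose by 0.39 ± 0.09 (adjusted p = 0.000504, edgeR). RPLP2 overlapped between groups and changed by 0.33 ± 0.10 (adjusted p = 0.0101, edgeR). That call was lost without library 49 (0.20) and with library totals alone as the scale (0.22). The value of RPLP2 was -0.04 with the length trend removed. RPLP0 had 675, 714, 654 and 683 CPM in EV_4OHT, against 642, 656, 642 and 761 CPM in EV libraries, with library 52 far above the other EV libraries, and gave 0.01 ± 0.06 (95% interval -0.11 to 0.14). RPS27A had 399, 482, 388 and 444 CPM in EV_4OHT, against 252, 317, 327 and 359.6 CPM in EV libraries, and rose by 0.45 ± 0.10 (adjusted p = 0.000675, edgeR). RPS12 rose by 0.44 ± 0.09 (adjusted p = 0.000326, edgeR), but its value with the length trend removed was 0.01. RPL41 and RPS4X changed by 0.28 ± 0.10 and 0.20 ± 0.07 (adjusted p = 0.021 and 0.0191, edgeR), and with the length trend removed neither was called, at -0.13 and 0.12. Both calls were also lost with library totals alone as the scale (0.17 and 0.09) and without library 49, 50 or 54. That of RPL41 was also lost when only the 2 groups were fitted (0.26). That of RPS4X was also lost with upper-quartile factors (0.16) and without library 51. RPL5, RPL11, RPSA, RPS3, RPL22, RPL36A, RPS6 and RPS19 did not pass the test, with log2 fold changes of 0.07, 0.12, -0.04, 0.02, 0.07, -0.11, 0.16 and 0.21. Some of them were called higher in other settings, RPL5 with the GC trend removed (0.23), RPS6 with the GC trend removed (0.24), RLE factors, limma-voom and DESeq2 (0.17 in each), and RPS19 without the low-count filter (0.22) and without libraries 51 and 59 (0.21). Without EV library 52, RPL11 (0.21), RPS6 (0.24) and RPS19 (0.30) were called higher.

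Each hairpin group was also compared with non-senescent cells. In shAHCY_4 against EV cells 28 of 76 members were lower and 2 were higher (edgeR's quasi-likelihood test), where 51.2% of genes were called, 25.8% lower and 25.4% higher, and the median over members was -0.16, against -0.03 over all genes. Without EV library 49, 49 members were lower and 0 higher at a median of -0.25, and without EV library 52, 21 were lower and 3 higher at a median of -0.08. In shAHCY_2 against EV cells 9 members were higher and 6 were lower, where 48.1% of genes were called, 24.5% higher and 23.6% lower, and the median over members was 0.02, against 0.00 over all genes. In 4 members all shAHCY_2 libraries were above all EV libraries and in 5 all were below, against 19.5% and 19.6% of all genes. This split turned to 1 higher and 13 lower without EV library 49 (median -0.07) and to 4 higher and 7 lower without 50 (median -0.007). Without EV library 51 it was 7 higher and 7 lower, and without 52 it widened to 19 higher and 3 lower (median 0.11). It also turned without library 60, to 3 higher and 7 lower, and with the scale, to 5 higher and 7 lower with upper-quartile factors and 3 higher and 12 lower with library totals, and with the length trend removed it was 3 higher and 23 lower. RPL10 had 310.2, 297, 297 and 290.2 CPM in shAHCY_4 and 331, 339, 333 and 371 CPM in shAHCY_2, against 382, 403, 400.4 and 485 CPM in EV libraries, with log2 fold changes of -0.48 ± 0.08 and -0.28 ± 0.08 (adjusted p = 1.28e-05 and 0.00356, edgeR). RPL3 changed by -0.34 ± 0.07 in shAHCY_4 and -0.28 ± 0.07 in shAHCY_2 against EV cells (adjusted p = 0.000469 and 0.00327, edgeR), without overlap in either. RPSA changed by -0.39 ± 0.07 and -0.25 ± 0.07 (adjusted p = 0.000126 and 0.00706, edgeR). RPL23A stayed above EV cells in both hairpin groups, at 0.26 ± 0.08 in shAHCY_4 and 0.36 ± 0.08 in shAHCY_2 (adjusted p = 0.0124 and 0.000991, edgeR), the shAHCY_4 call being lost without library 49 (0.18). The comparisons with EV and with EV_4OHT share libraries, so their values are given side by side only.

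Members with and without the TOP letters at the annotated start, and short and long members, had negative medians in shAHCY_4 cells. Of the 46 members with a TOP start, 36 were lower than in EV_4OHT cells at a median of -0.38, and of the 16 with a window and no TOP start 12 were lower at a median of -0.31. Of these 16, 7 had a run within 5 bases of the start, and the difference between the sets was not tested. Members are short, and short genes that are no member also moved: of 645 with a principal transcript under 1000 bases, 122 were lower and 36 higher in shAHCY_4 against EV_4OHT cells, at a median of -0.13. Among 11298 longer genes that are no member, 637 were lower and 956 higher, at a median of 0.02. Members under 1000 bases had 38 of 51 lower at a median of -0.35, and members of 1000 bases or more had 20 of 25 lower at a median of -0.33. With each library's trend over transcript length removed, 54 members were lower, 52 of them among the 58 above, at a median of -0.31. That trend was taken over the longest annotated transcript of a gene, not the principal one used for the split. RPS29, for example, has 7062 bases by the first and 296 by the second. Short members were therefore not all adjusted as short genes. In EV_4OHT against EV cells the short genes that are no member had a median of 0.20 and the short members 0.23, against 0.12 in the longer members. The bound of 1000 bases was chosen after the data were seen.

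**Figure D5:**
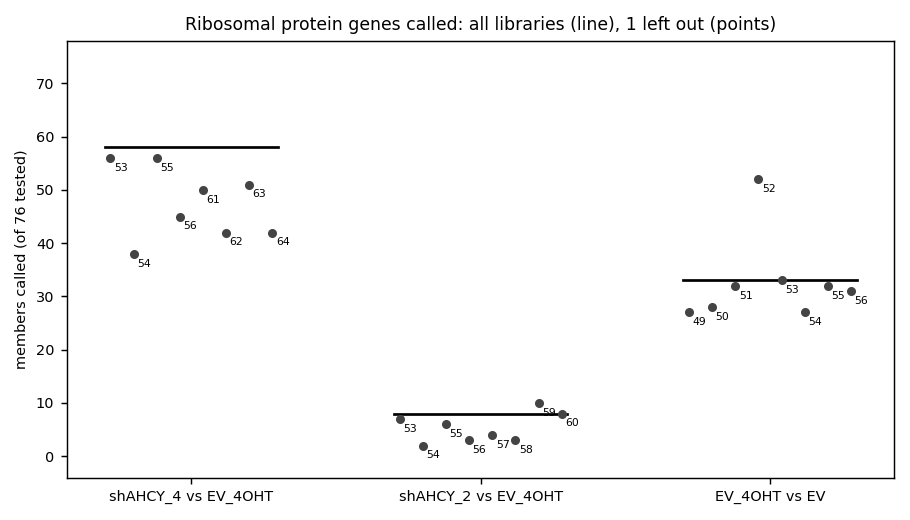
Number of members called (of 76 tested) in 3 comparisons, with all libraries (line) and with each library left out in turn (points, labelled by the replicate left out). The shAHCY_4 count runs between 38 and 56 and is lowest without library 54, the shAHCY_2 count runs between 2 and 10, and the senescence count is 52 without EV library 52 and 27 to 33 otherwise.

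Genes that work with the ribosomal proteins were read from lists, and their calls come from the same edgeR test. Their counts stand beside shares of all genes tested of 6.86% lower and 7.58% higher in shAHCY_4 against EV_4OHT, 3.07% lower and 3.91% higher in shAHCY_2 against EV_4OHT, and 26.7% higher and 26.8% lower in EV_4OHT against EV cells. Of 20 tested TOP genes outside the rule, 8 were lower and 1 was higher in shAHCY_4 against EV_4OHT cells, at a median of -0.19. They included EIF2S3, a subunit of the initiation factor eIF2 (-0.47 ± 0.08, adjusted p = 0.000158, edgeR), and the elongation factor gene EEF1B2 (-0.34 ± 0.07, adjusted p = 0.00317, edgeR). HNRNPA1, an RNA-binding protein with a TOP start, was the 1 that was higher (0.35 ± 0.07, adjusted p = 0.002, edgeR). In shAHCY_2 cells 1 of the 20 was higher, again HNRNPA1. In senescence 10 were higher and 6 lower, at a median of 0.22, with FAU, which encodes the 40S protein eS30, at 0.69 ± 0.08 (adjusted p = 1.29e-07, edgeR) and the elongation factor gene EEF1A1 at -0.54 ± 0.07 (adjusted p = 5.50e-07, edgeR).

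Paralogues outside the rule gave few calls. Of 6 tested, 1 was higher in shAHCY_2 cells and 1 was lower in senescence. Both were RPL39L, a paralogue of RPL39, which changed by 0.78 ± 0.22 in shAHCY_2 against EV_4OHT (adjusted p = 0.0311, edgeR) and by -2.02 ± 0.21 in EV_4OHT against EV cells (adjusted p = 2.52e-08, edgeR). Of 13 snoRNA host genes, many of which also begin with a TOP run, 1 was lower in shAHCY_4 cells, 1 was lower in shAHCY_2 cells and 6 were higher in senescence. SNHG16 rose by 0.96 ± 0.07 (adjusted p = 1.16e-10, edgeR) and GAS5 by 0.50 ± 0.09 (adjusted p = 0.000114, edgeR) in senescence, and SNHG29 fell in shAHCY_4 cells (-0.31 ± 0.07, adjusted p = 0.00532, edgeR).

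Among 20 genes of mTORC1 and LARP1, 4 were lower and 1 was higher in shAHCY_4 against EV_4OHT cells, at a median of 0.00. EIF4EBP2, a translation repressor that mTORC1 inactivates, fell (-0.54 ± 0.08, adjusted p = 7.96e-05, edgeR), its relative EIF4EBP1 rose (0.34 ± 0.11, adjusted p = 0.0303, edgeR), and RRAGB, a GTPase that places mTORC1 on lysosomes, fell (-0.56 ± 0.11, adjusted p = 0.00157, edgeR). In senescence 8 were higher and 2 lower. Of 31 initiation and elongation factors 3 were lower and 3 higher in shAHCY_4 cells, near the share of all genes, among them EIF1, which guards start-codon choice, at -0.61 ± 0.06 (adjusted p = 2.81e-07, edgeR). EIF1 was also lower in shAHCY_2 cells (-0.25 ± 0.06, adjusted p = 0.0122, edgeR) and was higher in senescence (0.67 ± 0.06, adjusted p = 4.09e-09, edgeR), where 17 of the 31 were higher and 2 lower. Of 19 carriers and chaperones of ribosomal proteins 2 were higher in shAHCY_4 cells, also near the share of all genes, TSR2, the chaperone of RPS26, at 0.41 ± 0.09 (adjusted p = 0.00231, edgeR) and the importin IPO9 at 0.33 ± 0.09 (adjusted p = 0.0146, edgeR). Of 15 genes of ribosome stalling and quality control 2 were higher and 2 lower in shAHCY_4 cells. RNF10, a ubiquitin ligase for stalled 40S subunits, was lower in shAHCY_4 (-0.29 ± 0.09, adjusted p = 0.0274, edgeR) and in shAHCY_2 cells (-0.32 ± 0.09, adjusted p = 0.0254, edgeR), and in senescence 7 of the 15 were higher and 1 lower.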

How the data were processed

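RNA was extracted with Trizol and RNeasy and made into Smart-Seq2 libraries with Nextera XT, per the labels' protocols. The deposited table holds whole-number read counts per gene, not normalized, for 16 libraries. The submitters' processing notes name CASAVA 1.8.2, TopHat2 2.0.11, featureCounts 1.18.0 and hg19. Which annotation was used, whether strand counted and how reads matching several places were handled is not given in the sources used here, so members with near-identical pseudogenes are uncertain. Symbols were paired with 50127 of 62069 identifiers, and identifiers without a symbol held 0.503% of counts.

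All 16 libraries were fitted together with edgeR 4.0.16 in R 4.3.3 (TMM factors, filterByExpr, quasi-likelihood test, two-sided), and p-values were adjusted by Benjamini-Hochberg over the 13526 genes tested, with a threshold of 0.05. Standard errors were derived from each log2 fold change and its F statistic. The 95% intervals used these standard errors with a normal quantile, so they are somewhat narrower than the F test implies. An interval that only just excludes 0 is therefore no sign of a passed test. Members and lists were chosen with earlier results of these data known. Members named were 14 listed by role, per comparison the 5 largest called increases and decreases, those failing the low-count filter, and the 3 with the most and the 3 tested with the fewest counts. From each list up to 4 genes with the smallest adjusted p were named. Others are marked where they appear, and some genes are not reported by name here. Alternatives were other scaling factors and filters, DESeq2 1.42.0, limma-voom 3.58.1, trends over GC content or transcript length removed, pseudogene counts added, fewer groups and each library left out. GC content and length in these trends are those of the longest annotated transcript of a gene. The fit was also run on simulated data, with the same spread for every gene and no shifts of whole libraries. That run is no support for the calls given here. Total counts of 8236199 to 18235787 per library limit precision, and no spike-in was used here, so values are relative.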

Additional observations from a re-analysis of the deposited data

Results flagged for a closer look

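In 8 of 124 groups of 4 libraries checked, 1 library stood farther from the others than Dixon's 95% critical value allows, and chance gives about 1 in 20 such groups. In shAHCY_4 cells, library 61 was high for RPS12 at 227.6 CPM, against 182 to 187 CPM in the other 3 libraries, and for RPL12 at 132.7 CPM. In the same group, library 63 was high for RPL28 at 85.3 CPM and for AHCY, the target of the hairpin, at 17.98 CPM. In EV_4OHT cells, library 54 was high for RPS28 at 182 CPM, for RPS29 at 209.7 CPM and for RPS15A at 80.4 CPM. In EV cells, library 52 was high for RPLP0 at 761 CPM. Libraries 54 and 52 were also those in which the members as a whole were highest within their groups.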

How the results depend on the processing

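The direction of the members' calls against EV_4OHT cells was the same under every setting run. With 1 library left out, the members called numbered 38 to 56 in shAHCY_4 against EV_4OHT, 2 to 10 in shAHCY_2 against EV_4OHT, 0 to 1 between the hairpins, 27 to 52 in EV_4OHT against EV, 24 to 49 in shAHCY_4 against EV and 10 to 22 in shAHCY_2 against EV. With the length trend removed, 13 members were called in shAHCY_2 against EV_4OHT and 26 in shAHCY_2 against EV, where the fit of only the groups compared called 8. Between the hairpins the count was 10 without the low-count filter, 7 with the GC trend removed and 5 with DESeq2. The AHCY difference between the hairpins was -0.49 to -0.21 with 1 library left out, -0.38 with the GC trend removed and -0.48 with libraries 51 and 59 left out for their GC trend, a setting chosen after seeing the data. With the length trend removed, log2 fold changes turned to -0.039 for RPLP2 and -0.13 for RPL41 in EV_4OHT against EV, and to -0.32 for RPLP2, -0.16 for RPS6, -0.25 for RPL41 and -0.36 for RPS12 in shAHCY_2 against EV. The cause was not tested. Length here is that of the longest annotated transcript, with 781 bases for RPLP2, 699 for RPL41, 639 for RPS12 and 1387 for RPS6. Members with a long annotated transcript, such as RPS29 (7062 bases), were adjusted as long genes. Without mitochondrial counts the members' share was 2.52% in shAHCY_4, 2.79% in shAHCY_2 and 3.08% in EV_4OHT cells. No paired analysis was possible because the replicate numbers are not shared between groups. Genes with few counts, such as RPL36A, are limited by depth.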
